A study of Mus musculus with 23 samples.

Results

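Mouse embryonic stem (ES) cells labelled as Lin28a knockout (Lin28a-null) were compared with wild-type (WT) ES cells, gene by gene, in 3 libraries of each. The genes described were those whose TPM, an abundance corrected for transcript length and scaled to the same total in each library, averaged 1 or more over these 6 libraries, which held for 16060 of the 53715 genes listed. The comparison belongs to a study of 23 mouse samples on what LIN28 proteins do in pluripotent cells and early embryos. The ES table also held 3 libraries labelled Lin28b-null and 6 of a line called ilet7, and induced pluripotent stem (iPS) cells, wild type or labelled as Lin28a/b double knockout, stood in a table of their own with 3 libraries each.

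The WT cells were untreated ES cells from the inner cell mass, and the Lin28a-null cells carried the knockout as their only stated treatment. Both were grown on gelatin with mouse embryonic fibroblast (MEF) feeder cells in LIF/2i medium for 2 days, and feeders were depleted before lysis. The study made knockout ES cells as single CRISPR/Cas9 clones and also from knockout mice, and the labels do not say which of these the Lin28a-null libraries are. The knockout and the line therefore cannot be told apart here. The replicates were not stated to be separate cultures, so the p-values measure only the spread between these samples, which may be technical.

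LIN28A and its paralog LIN28B are RNA-binding proteins best known for binding the precursors of let-7 microRNAs and blocking their maturation. They are high in early embryos and stem cells and fall as cells differentiate, whereas let-7 rises. LIN28 proteins also bind many messenger RNAs and change how they are translated. The mature let-7 sequences show what the family shares, and the capitals mark the seed, bases 2 to 8, through which a microRNA pairs with its targets (RefSeq, GRCm38.p6).
let-7a-5p: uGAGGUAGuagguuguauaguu
let-7g-5p: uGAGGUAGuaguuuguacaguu

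Lin28a itself (chromosome 4, 134003330 to 134018841, mm10) was listed at 14.6, 21 and 15.8 TPM in Lin28a-null replicates 1, 2 and 3, and at 31.5, 61.2 and 32 TPM in the WT replicates. All values below are TPM and follow this order of replicates where 3 are given. The 2 groups did not overlap, and Lin28a fell by 1.18 ± 0.27 (SE) on the log2(TPM + 1) scale (adjusted p = 0.013, limma). Without Lin28a-null replicate 1 the change was -1.08 and no longer passed (adjusted p = 0.052), and without WT-2 it was -0.87 (adjusted p = 0.007). The transcript was therefore lower but present, and a gene-level TPM does not show whether an exon is missing. Lin28b (chromosome 10) was higher in Lin28a-null cells at 8.81, 8.79 and 8.69, against 3.63, 5.18 and 4.69 in WT, and rose by 0.84 ± 0.16 (adjusted p = 0.0063). In libraries labelled Lin28b-null, Lin28b stood at 12.6, 13.8 and 12.6, above every WT library. The knockout was thus not visible as a lower mRNA level, and here too a missing exon would not show.

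Each gene was tested on log2(TPM + 1) with limma. A gene is said to rise or fall when its adjusted p was under 0.05, and a call also required a log2 change larger than 1 in size. By this rule 3283 genes rose (20.4% of those tested) and 2854 fell (17.8%). Calls numbered 2180 (13.6%), of which 1483 were higher (9.23%) and 697 lower (4.34%) in Lin28a-null cells. Quantile normalization called 1223 higher and 946 lower, so that the share of higher calls was 56.4% there and 68.0% in the main test. The libraries of the groups did not overlap for 8537 genes (53.2%), and 2171 of the called genes were among them. The median log2 change over all genes tested was 0.02, and the lists described below are read beside it.

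**Figure D1:**
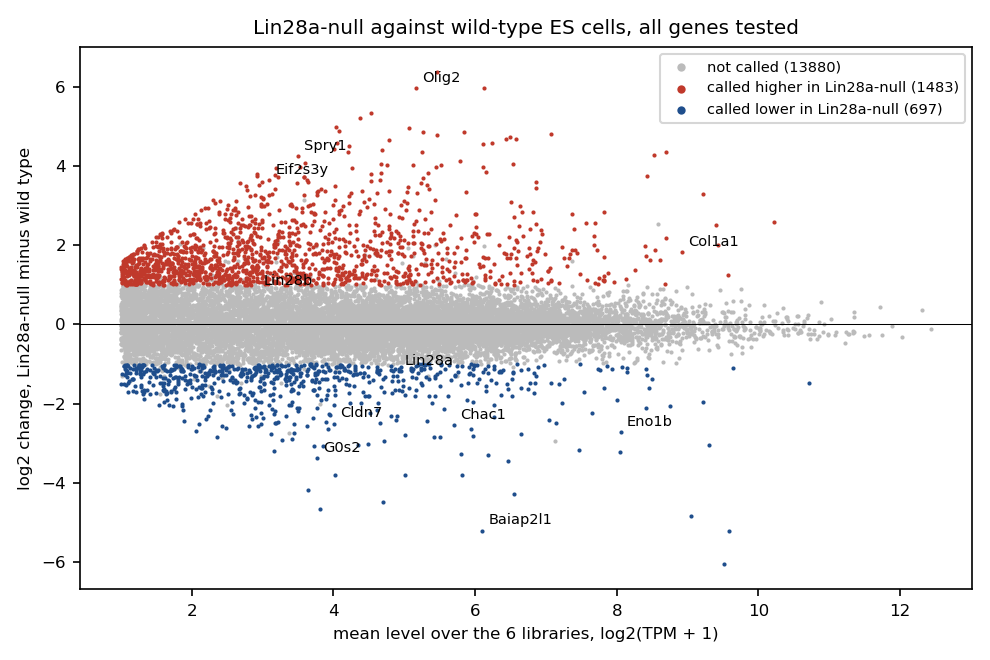
Each point is 1 of 16060 genes, with its mean level over the 6 libraries on the x axis, log2(TPM + 1), and its log2 change in Lin28a-null against WT ES cells on the y axis. The 1483 genes called higher are red, the 697 called lower are blue, and the others are grey.

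The Lin28a-null libraries listed 16007 to 16349 genes at 1 TPM or more and the WT libraries 15188 to 15748. WT-2 differed from the other WT libraries. It lay outside the interval between WT-1 and WT-3 in 12726 genes. Any library of a small group lies outside the rest in many genes, so this count alone does not set WT-2 apart. WT-2 was more than 1 on the log2 scale from their mean in 844 genes, in 563 of them above it. WT-1 and WT-3 were that far apart in 367 genes. Without WT-2, 3860 of 16009 genes rose (24.1%) and 2978 fell (18.6%), and 2303 were called (14.4%), with 1690 higher (10.6%) and 613 lower (3.83%). Of the 2180 calls, 1974 were made in the same direction without WT-2 (90.6%), and none turned. Of those lost, 61 were higher and 145 lower in Lin28a-null cells, and 227 higher and 60 lower calls were gained. WT-2 held fewer transcripts of 2-cell embryo genes than WT-1 and WT-3 and more of fibroblast, interferon and trophoblast genes, as the values below show.

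Genes on chromosome Y separated the groups. Eif2s3y, which encodes a subunit of the translation initiation factor eIF2, was at 14.4, 13.6 and 16.3 in Lin28a-null cells and at 0.365, 0.363 and 0.0575 in WT cells. Ddx3y, an RNA helicase, ranged from 10.4 to 13.2 against 0.0396 to 0.309, and Uty and Uba1y showed the same order, with Uba1y at 0 in WT-1 and WT-3. Of 7 genes on chromosome Y that were tested, 6 rose. The libraries labelled Lin28b-null stood between, with Eif2s3y at 5.18, 6.19 and 3.6. Their X-linked partner genes did not pass the test, with Eif2s3x at 188 to 204 and 178 to 194 and Ddx3x at 545 to 704 and 475 to 583 in Lin28a-null and WT cells, and Ddx3x passed it without WT-2 (adjusted p = 0.045). Xist, the RNA that coats an inactive X chromosome, was at 11.8, 12.9 and 6 in Lin28a-null cells and 0.647, 1.66 and 0.497 in WT cells and also rose. Apart from Eif2s3y, these genes were picked after their values were seen. The summed level of fibroblast and feeder genes was also higher, at 6421 to 8787 TPM in Lin28a-null and 2366 to 4657 in WT libraries. Its part in the Xist and chromosome Y transcripts was not tested.

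The genes of chromosome 1 were higher on balance. Of its 940 genes tested, 295 rose (31.4%) and 93 fell (9.9%), with a median log2 change of 0.19. Among its 694 genes averaging 5 TPM or more, the median deviation from the WT mean was 0.207, 0.171 and 0.192 in the Lin28a-null libraries and -0.059, 0.058 and 0.004 in the WT libraries. In libraries labelled Lin28b-null it was -0.074, -0.064 and -0.011. In Lin28a-null cells the library medians of the remaining autosomes and X lay between -0.103 and 0.088. The rise was spread along the chromosome, since all 12 blocks of 15 Mb with at least 20 genes had a median above 0, between 0.101 and 0.35. Chromosome 11 of the libraries labelled Lin28b-null had medians between 0.346 and 0.408.

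**Figure D2:**
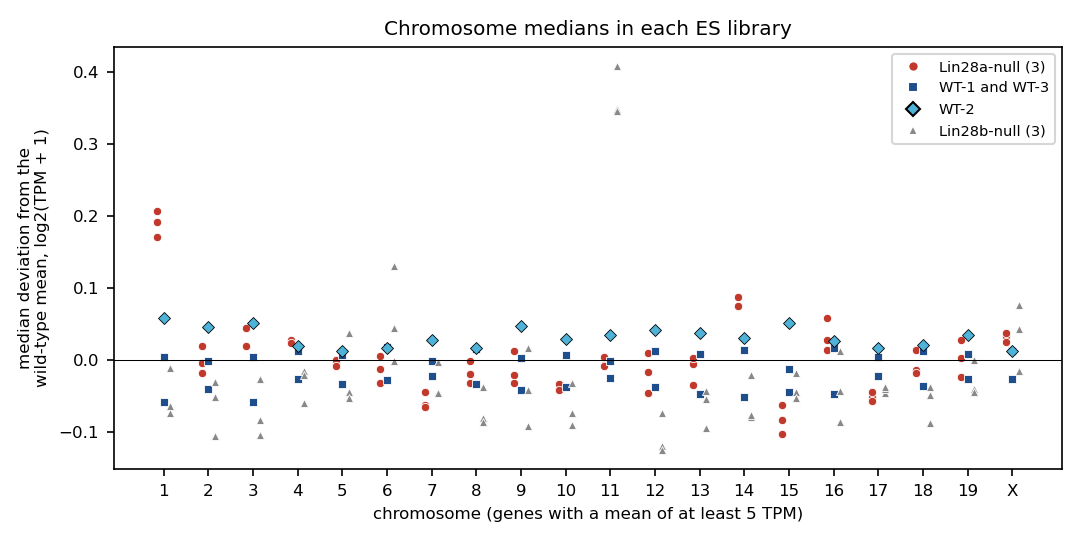
For each chromosome, the points show the median deviation of its genes from the WT mean in each library, log2(TPM + 1). The 3 Lin28a-null libraries lie between 0.171 and 0.207 on chromosome 1, above all WT libraries, and between -0.103 and 0.088 elsewhere.

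The 15 largest rises were chosen among genes called with all WT libraries and without WT-2. Olig2 and Olig1, neighbouring basic helix-loop-helix factors known from motor neurons and oligodendrocytes, led them. Olig2 was at 63.7, 74.2 and 70.9 in Lin28a-null cells and at 0.16, 0.214 and 0 in WT cells, a log2 change of 5.97 ± 0.14 (adjusted p = 1.8e-06). Olig1 was at 49.9, 55.4 and 51.1 against 1.49, 1 and 0.869. Both were under 2 TPM in every WT library, and the libraries labelled Lin28b-null were as low (0.172 to 0.282 for Olig2). Of the neural marker list, 1 of 8 genes tested rose and 1 fell, and Dcx was under 0.1 TPM in all 6 libraries. Ubd, the ubiquitin-like modifier FAT10, was at 29.9 to 37.2 against 0.384 to 0.655, and Nod1, a sensor of bacterial cell wall fragments, at 49.4 to 50.3 against 1.63 to 2.43. Myo1f, a myosin known from immune cells, stood at 29.8 to 32 against 0.153 to 0.611, while Ptprc, Aif1 and Tyrobp, defining blood cell genes, were under 0.1 TPM in all 6 libraries and 1 of 4 genes tested of the blood list rose. Tie1, an endothelial receptor, was at 14.4 to 16.8 against 0 to 0.414, while of the endothelial list 3 of 7 genes tested rose and 2 fell, and Emcn was under 0.1 TPM in all 6. The summed level of the endothelial list was 133.1 to 143.4 TPM in Lin28a-null and 170.9 to 246.1 in WT libraries.

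Further large rises were the peptide transporter Slc15a2, the nuclear receptor Nr4a2, Ccser1, the mitochondrial arginase Arg2, and Spry1, Egr1 and Eif2s3y, which are described elsewhere. Arg2 was at 39.5, 41.3 and 42.1 in Lin28a-null cells and at 4.24, 0.244 and 4.88 in WT cells, where WT-2 was the lowest. Usp17lc, 1 of a tandem family of deubiquitinases, followed the same order at 47.8, 52.2 and 35.7 against 5.62, 0.29 and 4.57. Reads that map to several places were dropped, which leaves genes with near-identical copies such as this one uncertain. Nnt, a mitochondrial transhydrogenase, was split over 2 overlapping gene models on chromosome 13. A model that the deposited table gives under a clone name and the annotation as Nnt (ENSMUSG00000116207.1) was at 28, 34.3 and 29.8 against 0 in every WT library. The other (ENSMUSG00000025453.18) was at 20.7, 14.3 and 14.8 against 43.4, 40.2 and 29.9. Reads of overlapping models cannot be separated here, and their sum was 44.6 to 48.8 in Lin28a-null and 29.9 to 43.4 in WT libraries.

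The 15 largest falls included Baiap2l1, an adaptor that binds membranes and actin. It was at 2.92, 2.92 and 2 in Lin28a-null cells and at 135, 114 and 149 in WT cells and fell by 5.21 ± 0.16 (adjusted p = 5.3e-06). Otx2, a homeobox factor of the forebrain and of cells leaving naive pluripotency, was at 2.23, 2.18 and 4.23 against 36.9, 105 and 35.6, with WT-2 the highest library. The list of formative and primed pluripotency genes did not fall with it. Of its 24 genes tested, 9 rose and 3 fell (median 0.209), and 11 rose and 6 fell without WT-2. Sox21, a repressor of the Sox family, was at 8.65 to 11.3 against 67 to 81.7. G0s2, an inhibitor of triglyceride breakdown, was at 2.65, 0.882 and 0.868 against 25.3, 17.7 and 28.5. For both, the groups were far apart. Eno1b, an intronless copy of the enolase gene Eno1, was at 65.1 to 71.9 against 391 to 506, whereas Eno1 itself, looked up after these values were seen, was at 1133 to 1284 against 965 to 1113. Reads that fit both copies were dropped, so the value of the copy is uncertain. The others were Sh3rf2, Myh7b, Ly6g6e, Mef2b, Kiss1, Cd3g, P2rx3, Chac1 and the non-coding RNAs Platr15 and Srrm4os, and Srrm4os is antisense to Srrm4, from which its reads cannot be told apart without strand.

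**Figure D3:**
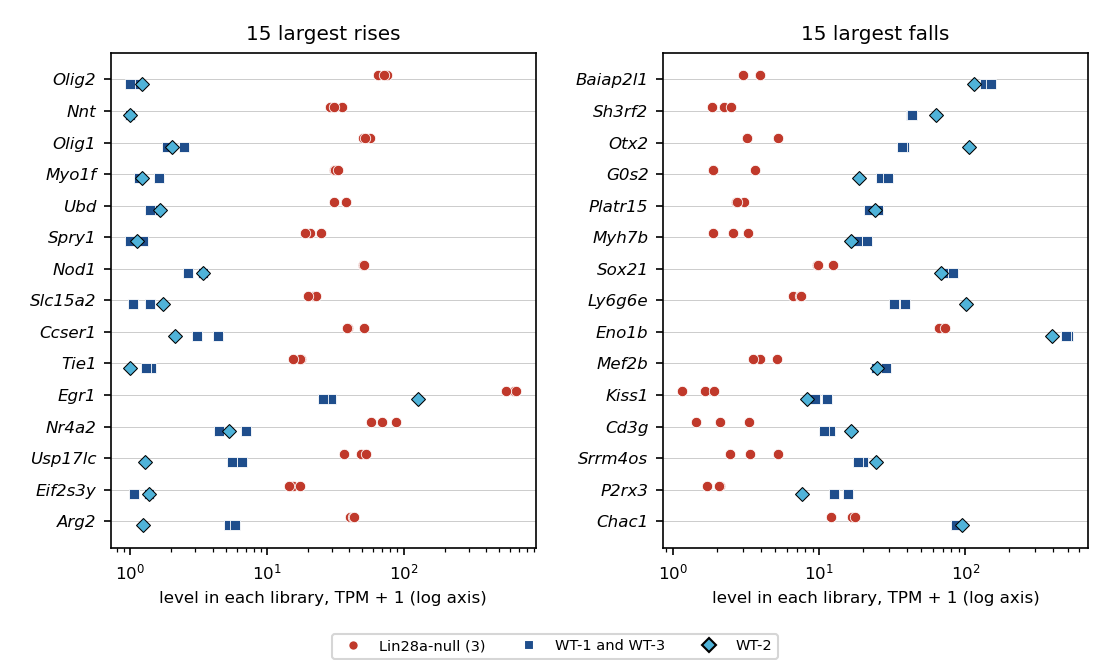
Each row is a gene, and the points are the 6 libraries on a log axis of TPM + 1, with Lin28a-null as red circles, WT-1 and WT-3 as blue squares and WT-2 as a light blue diamond. For each of the 30 genes the Lin28a-null libraries lie apart from all WT libraries, as the rule for choosing them requires.

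None of the core pluripotency factors passed the test. Pou5f1 stood at 1347 to 1425 in Lin28a-null and 1394 to 1545 in WT libraries, Nanog at 1149 to 1262 and 1149 to 1303, and Sox2 at 449 to 486 and 395 to 473, with overlap in all 3, although Sox2 passed the test without WT-2 (adjusted p = 0.038, log2 change 0.20). Of 22 ES cell identity genes tested, 5 rose and 6 fell (median -0.064). Among the changes, Zfp42 (Rex1), a naive marker, was at 197, 199 and 204 against 539.5, 498 and 529.7, and Utf1, a chromatin protein of ES cells, at 63.5, 63 and 56.3 against 123, 153 and 135. In the other direction Dppa2, which opens chromatin at bivalent and early embryonic genes, was at 331, 340.1 and 331 against 139, 48.9 and 155, with WT-2 the lowest. Tdgf1 (Cripto), the co-receptor for NODAL, was at 874 to 947 against 449.5 to 602.

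Fibroblast and feeder genes were higher. Of 35 genes tested, 32 rose and none fell (median 1.802, and 2.191 without WT-2). Col1a1, the main chain of type I collagen, was at 892, 673 and 644 in Lin28a-null and 130.5, 388 and 166 in WT cells, and Pdgfrb, a receptor of stromal cells, at 24.3, 19.3 and 16.6 against 5.09, 9.15 and 6.81. The summed level of the list ranged from 6421 to 8787 TPM in Lin28a-null libraries, from 2366 to 4657 in WT libraries, with WT-2 the highest of these, and from 2665 to 4055 in libraries labelled Lin28b-null. Every gene of the list reached 1 TPM in at least 1 of the 6 libraries. Its part in the rises of the LIF, FGF and cyclin lists, which moved in the same direction, was not tested. In bulk RNA a larger number of such cells and more RNA per cell cannot be told apart. Of 30 collagen genes tested, 21 rose and 2 fell (median 1.432), led by Col8a1, Col6a1, Col5a2 and Col6a3.

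Trophoblast genes were lower. Of 11 tested, 8 fell and 1 rose (median -0.911, -0.861 without WT-2), and their summed level was 125.6 to 131.9 TPM in Lin28a-null and 209.4 to 278.8 in WT libraries. Tfap2a, a factor of trophoblast and surface ectoderm, was at 2.8, 3.08 and 3.37 against 7.75, 18 and 7.61, and Ascl2, needed for the placenta, at 2.3, 2.18 and 1.72 against 4.97, 7.47 and 5.5. WT-2 was the highest WT library for both. Eomes, also a trophoblast regulator, rose instead, at 14.3, 16.8 and 18.3 against 8.78, 9.33 and 6.37. Elf5 and Hand1 were under 1 TPM in all 6 libraries.

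LIF, through its receptor, JAK kinases and STAT3, keeps mouse ES cells self-renewing, and the medium contained it. Of 19 genes of this pathway tested, 8 rose and 2 fell (median 0.395). The ligand gene Lif was at 73.2, 57 and 47.7 in Lin28a-null cells and at 14.2, 20.4 and 13.8 in WT cells, a log2 change of 1.81 ± 0.20. Stat3 was at 192, 205 and 188 against 80.2, 112 and 90.6, and Socs3, the feedback inhibitor that STAT3 induces, at 87.7, 77.6 and 81.2 against 32.3, 54.5 and 34.1. The receptor Lifr did not pass the test, at 14.7 to 18.4 and 9.95 to 20.9, and the kinase Tyk2 fell, at 26.4 to 27.3 against 36.1 to 37.7.

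FGF4 made by ES cells signals through ERK and moves them out of the naive state, a step that the MEK inhibitor in 2i medium blocks. Of 34 FGF and ERK genes tested, 15 rose and 3 fell (median 0.321, 0.209 without WT-2). The ligand gene Fgf4 fell, at 209.9, 228 and 219.9 in Lin28a-null and 401, 499.7 and 313 in WT cells. Its receptor Fgfr1 did not pass, at 84.9 to 106 and 75.7 to 95.3, nor did the ERK-induced genes Dusp6, at 63.5 to 68.7 and 63.1 to 69.7, and Etv5, at 289.7 to 337 and 277 to 373.

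Other genes that ERK induces were far higher. Spry1, an inhibitor of receptor signalling, was at 23.7, 19.8 and 17.9 against 0, 0.111 and 0.248 (log2 change 4.26 ± 0.18, adjusted p = 1.7e-05), and its paralog Spry4 at 54.9, 63.7 and 45 against 5.99, 5.05 and 6.19. The immediate early factor Egr1 was at 645, 669 and 559 against 28.4, 127 and 24.9, with WT-2 above the other WT libraries. Phlda1, another early response gene, was at 51.5, 51 and 36.2 against 7.77, 12.2 and 8.21. In libraries labelled Lin28b-null, Egr1 stood at 331 to 459 and Spry4 at 44.7 to 47.3, and neither differed from Lin28a-null cells by the test (adjusted p = 0.29 and 0.18), while Spry1, at 3.43 to 6.11, did (adjusted p = 0.0001). Fosb and Jun, further early response genes chosen after their values were seen, were at 76.1 to 108 against 20.9 to 38 and 82.8 to 108 against 25.3 to 61. Their relative Junb, picked in the same way, was listed at 0.203, 0 and 0 in Lin28a-null and 0, 78.2 and 0 in WT cells and did not pass, so that only WT-2 held more than 1 TPM. The part of the fibroblast transcripts in these early response genes was not tested.

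**Figure D4:**
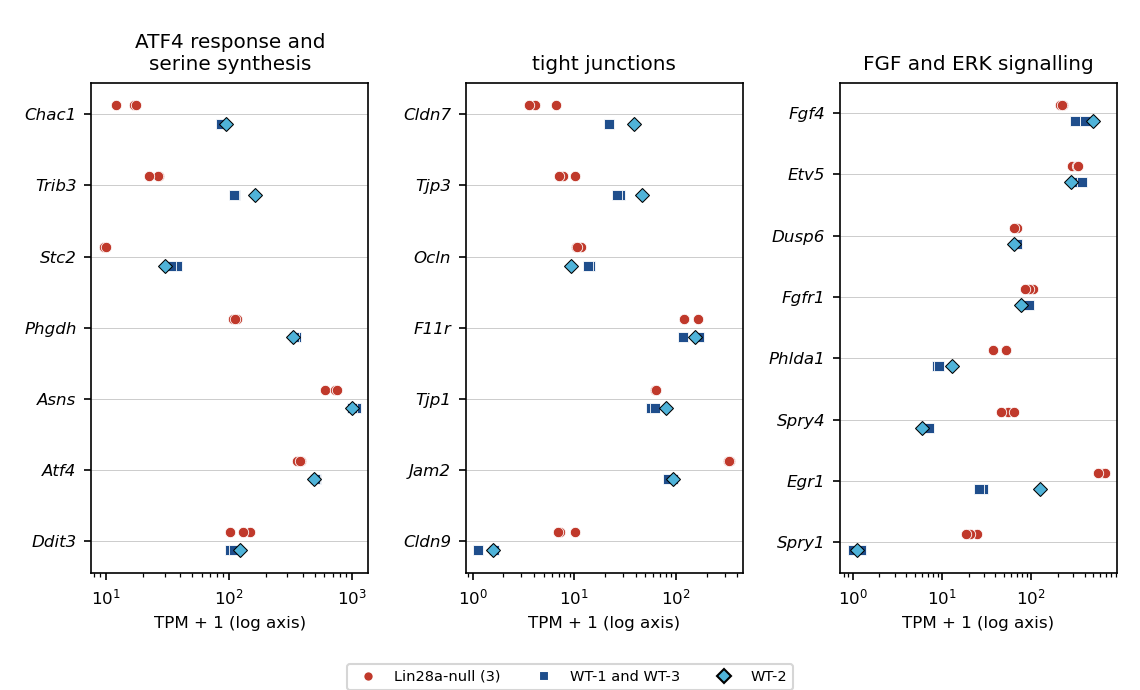
Points are the 6 libraries on a log axis of TPM + 1 for the genes named from the ATF4, tight junction and FGF lists. Lin28a-null libraries (red) lie below all WT libraries (blue) for Chac1, Trib3, Stc2, Phgdh, Cldn7 and Tjp3 and above them for Spry1, Spry4, Egr1 and Phlda1, and they overlap with WT for Dusp6, Etv5 and Fgfr1.

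WNT signals stabilise beta-catenin, which the GSK3 inhibitor in 2i medium does as well. Of 47 WNT genes tested, 18 rose and 5 fell (median 0.35). Wnt5a, a ligand that mostly acts without beta-catenin, was at 18.7, 16.9 and 15.9 in Lin28a-null and 2.24, 3.52 and 2.44 in WT cells, and Wnt9a at 11, 10.3 and 6.48 against 1.81, 2.49 and 2.91. Sp5, also on this list, rose to 3.922 times its WT mean. It did not pass when any 1 of the Lin28a-null libraries was left out (log2 change 1.97 to 2.038, adjusted p between 0.055 and 0.066). The target gene Axin2 did not pass the test, at 51.7, 58.2 and 54.1 and 51.4, 21.4 and 55.2, and WT-2 was well below the rest. Beta-catenin itself (Ctnnb1) was at 449 to 527 and 415 to 489. Sfrp4, a secreted inhibitor, fell, at 1.48, 1.04 and 1.14 against 4.63, 8.48 and 3.79. Stromal cells also express Wnt5a, 32 of 35 fibroblast genes rose beside this list, and their part in it was not tested.

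Of 55 genes of NODAL, BMP and TGF-beta signalling tested, 24 rose and 6 fell (median 0.406). These ligands act through SMAD proteins, and NODAL and activin hold cells in pluripotency while BMP4 induces Id genes. Inhba and Inhbb, whose products form activins, were at 38.5, 29.2 and 22 and 32.8, 28.9 and 21.6 in Lin28a-null cells against 3.39, 4.15 and 3.04 and 4.39, 7.67 and 4.48 in WT cells. Bmp4 was at 17.8, 14.8 and 14.4 against 4.29, 2.65 and 1.98, and its target Id1 at 88.1, 70.7 and 60.7 against 13, 19.4 and 16.2. Bmp7 fell, at 5.05, 4.79 and 6.12 against 24, 26 and 24.4. Nodal was at 134 to 147 and 116 to 144, and Smad4, the shared SMAD, at 55.5 to 60.4 and 48.5 to 59.1, both short of the test, and Nodal passed it without WT-2 (adjusted p = 0.013, log2 change 0.29). The summed fibroblast level rose beside this list, and its part in it was not tested.

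Of 24 NOTCH genes, 4 rose (16.7%) and 5 fell (20.8%), with a median of -0.096. These shares were near the 20.4% and 17.8% of all genes tested. Hes1, a target of NOTCH and of other signals, was at 168, 144 and 146 against 57.5, 91.8 and 64.1, whereas the ligand Jag2 and the regulator Dtx1 fell, Dtx1 from 37.5 to 41.6 in WT to 10.1 to 13.1 in Lin28a-null cells. Rbpj, the DNA-binding partner of NOTCH, was at 143 to 150.1 against 173 to 215 and fell by 0.39. Of 26 HIPPO and YAP genes, 10 rose and 8 fell (median 0.066). The effectors Yap1 and Wwtr1 did not pass, Yap1 at 140.0 to 161 and 142 to 155, nor did the YAP target Ccn1, at 170.4 to 229.6 and 181 to 329.8. Axl and Ankrd1, also induced by YAP, rose, Axl to 33 to 49.5 from 8.29 to 15.7, and Wwc1 (KIBRA), an upstream activator of the pathway, fell to 16.9 to 20.3 from 37.2 to 49.

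Tight junction and desmosome genes were lower on balance. Tight junctions seal neighbouring cells and are built from claudins, which cross the membrane, and from scaffold proteins. Of 25 such genes tested, 14 fell and 4 rose (median -0.569, -0.557 without WT-2). Their summed level overlapped between the groups, at 1117 to 1154 TPM in Lin28a-null and 1079 to 1330 in WT libraries. Of 14 genes of classical cadherins and catenins, which form another kind of junction, 4 rose and 2 fell (median -0.025). The claudin Cldn7 was at 3.15, 2.61 and 5.68 in Lin28a-null and 20.7, 37.8 and 20.7 in WT cells (log2 change -2.50 ± 0.31, adjusted p = 0.0013), and the scaffold Tjp3 at 6.67, 6.12 and 9.06 against 26.9, 44.8 and 25.5. The scaffold Tjp1 and the adhesion molecule F11r did not pass the test, with Tjp1 at 61.5 to 63.2 and 55.6 to 79, and the occludin gene Ocln passed it only without WT-2 (adjusted p = 0.042, log2 change -0.37). Jam2 rose, at 324, 339.9 and 331 against 91.3, 92.2 and 82.5, and so did Cldn9, at 6.18, 9.15 and 5.95 against 0.136, 0.606 and 0.623.

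Desmosomes, which anchor keratin filaments at cell contacts, followed. Of 15 genes tested, 7 fell and 1 rose (median -0.547, and -0.334 without WT-2). Dsp, the desmosomal plaque protein that binds keratins, was at 3.71, 3.68 and 5.12 against 22.6, 19.5 and 21.3, and Pkp3, another plaque protein, at 7.2, 6.84 and 7.82 against 17.5, 23.4 and 21.6. The keratin Krt18 was at 4.12, 5.2 and 5.26 against 10.9, 23.8 and 11, and its partner Krt8, at 8.52 to 10.4 and 10.4 to 23.2, did not pass. Among 19 regulators and markers of the epithelial to mesenchymal transition, 8 rose and 4 fell (median 0.283). Epcam, an epithelial adhesion molecule, fell, at 37.3, 38.4 and 43.7 against 138, 160.4 and 129, while E-cadherin (Cdh1) was at 389 to 421 and 422 to 513 and did not pass. Zeb2 and Snai1, repressors of epithelial genes, rose, Zeb2 to 7.56 to 12 from 0.511 to 1.13 and Snai1 to 27.3 to 37.9 from 6.5 to 14.4. Both are expressed in fibroblasts too, and the part of the fibroblast transcripts was not tested.

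Genes of the ATF4 list fell together. ATF4 is the transcription factor of the integrated stress response, and it drives genes for amino acid uptake, serine synthesis and stress adaptation. Of 32 genes tested, 24 fell and none rose (median -0.643, and -0.594 without WT-2, where 24 fell and 3 rose). Their summed level was 4273 to 4365 TPM in Lin28a-null and 6682 to 7153 in WT libraries. In libraries labelled Lin28b-null it was 4611 to 5431 TPM, also below every WT library. Chac1, which degrades glutathione, was at 15.8, 16.7 and 11 in Lin28a-null cells and 84.6, 93.3 and 84.8 in WT cells (log2 change -2.54 ± 0.15, adjusted p = 9.6e-05). Phgdh, the first enzyme of serine synthesis, was at 116, 108 and 111 against 352, 329 and 338, and the pseudokinase Trib3 at 26.2, 25.3 and 21.3 against 112, 163 and 109. All 3 were separated by group, and the WT libraries lay close together for Chac1 and Phgdh. Stc2, a secreted glycoprotein, was at 8.6, 8.67 and 8.94 against 37, 29.2 and 32.9. Atf4 itself fell by less, at 382, 359 and 377 against 507, 493 and 505, and Ddit3 (CHOP), another factor of the response, did not pass, at 101 to 149 and 100.5 to 122. Asns, the asparagine synthetase, was at 611, 731 and 762 against 1081, 1008 and 1013.

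Promoters of this list were searched for the composite element to which ATF4 binds, written TGATGNAA, on both strands of the 300 bases from 250 before to 50 after the start site (RefSeq, GRCm38.p6). It occurred in 9 of 28 list members with a promoter (32.1%), in 2.8% of all tested genes with a promoter and in 4.5% of all promoters in the table. Members that fell held it in 6 of 21 cases and the others in 3 of 7. The promoters of Chac1 (chr2:119350992-119351291, plus strand) and Asns (chr6:7693160-7693459, minus strand) are shown because both genes fell and carry the element, which stands in capitals, in Chac1 on the opposite strand. A match is a description of the letters and not of binding. The list was chosen for its link to ATF4, so its share above that of all genes is not a result of these data.
Chac1: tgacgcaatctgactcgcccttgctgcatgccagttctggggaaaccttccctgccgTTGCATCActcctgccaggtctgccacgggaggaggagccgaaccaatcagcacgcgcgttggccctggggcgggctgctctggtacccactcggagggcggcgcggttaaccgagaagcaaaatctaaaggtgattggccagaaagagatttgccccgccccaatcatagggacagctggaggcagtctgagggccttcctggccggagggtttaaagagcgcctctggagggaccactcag
Asns: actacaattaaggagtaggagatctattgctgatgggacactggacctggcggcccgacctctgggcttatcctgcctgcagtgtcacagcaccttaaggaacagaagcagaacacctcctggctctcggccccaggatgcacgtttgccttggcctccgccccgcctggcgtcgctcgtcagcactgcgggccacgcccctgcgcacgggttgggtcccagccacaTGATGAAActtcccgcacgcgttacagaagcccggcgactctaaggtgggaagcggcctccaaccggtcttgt

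Enzymes that load amino acids onto transfer RNA, many of them also ATF4 targets, were lower by smaller amounts. Of 23 cytosolic aminoacyl-tRNA synthetase genes tested, 12 fell and none rose (median -0.267). Sars, the seryl enzyme, was at 160.4, 157 and 169 in Lin28a-null and 289.5, 276 and 282 in WT cells, and Mars, the methionyl enzyme, at 154, 156 and 157 against 249, 243 and 240.4. The spread within groups was small next to these differences. The lysyl enzyme Kars and the glutamyl-prolyl enzyme Eprs did not pass, with Kars at 346 to 352 and 326 to 368.

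One-carbon and polyamine metabolism was partly lower, with 10 of 30 genes falling and 4 rising (median -0.18). Gldc, the glycine decarboxylase that feeds folate with carbon from glycine, was at 35, 33.7 and 39.8 against 94, 95.1 and 97.2, and Mthfd2, a mitochondrial folate enzyme, at 115, 114 and 124 against 226, 212 and 234. Tdh, the threonine dehydrogenase on which mouse ES cells depend, did not pass, at 791 to 898 and 765 to 848. Ahcy, which clears S-adenosylhomocysteine, rose to 284 to 301 from 132 to 189. Of 29 glutathione genes and NRF2 targets, 9 fell and 5 rose (median -0.048, and -0.178 without WT-2). The glutathione synthetase Gss was at 44.8, 52 and 51.1 against 202, 99.7 and 225, with WT-2 closest to the Lin28a-null libraries. The glutathione transferases Gstm1, Gstm2, Gstm3, Gstm6 and Gstm7, neighbours on chromosome 3, were all called lower, with Gstm1 at 58.7, 52.3 and 59.1 against 172, 158 and 151. The NRF2 targets Hmox1 and Gclm did not pass, Hmox1 at 191 to 214 and 169 to 217.

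Of 21 genes tested that process microRNAs, 3 rose (14.3%) and 3 fell (14.3%), Lin28a and Lin28b among them (median 0.043), beside 20.4% and 17.8% of all genes tested. Dicer1, which cuts precursors, was at 41.1 to 51.2 and 43.2 to 58, Tut4, which adds uridine to pre-let-7 bound by LIN28A, at 44.5 to 47.1 and 43 to 53.1, and Dis3l2, which degrades that product, at 26.6 to 30.5 and 30.9 to 39.7, and none of them passed. Prkra, a partner of Dicer, fell, at 15.6, 16.1 and 14.1 against 29.9, 29.8 and 25.6. Of 42 translation initiation factor genes, 11 rose (26.2%) and 10 fell (23.8%), beside the same 20.4% and 17.8%, with a median of 0.033 and none called. Eif3j1 rose, at 81.9, 82.2 and 76.2 against 36.7, 37.4 and 46, and shares near-identical sequence with a copy, so this value is uncertain. Eif2b3, a subunit of the exchange factor that the integrated stress response inhibits, fell, at 68.7, 59.4 and 59.3 against 88.4, 91.8 and 96, and Eif4e and Eif2s1 did not pass, Eif2s1 at 199 to 206 and 189 to 214.

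Of 38 Polycomb genes, which keep developmental genes silent, 6 rose (15.8%) and 5 fell (13.2%), with a median of 0.102. Among all genes tested 20.4% rose and 17.8% fell. Only Phf19 was called, at 0.74, 0.857 and 1.1 against 3.22, 7.94 and 3.09. Ezh2 and Rnf2 rose by small amounts, to 1.159 and 1.195 times their WT means. Neither passed when any 1 of the Lin28a-null libraries was left out. Ezh1 fell, at 19.8 to 20.6 against 31.3 to 34.4, and Suz12 did not pass, at 156 to 320.5 and 147 to 174. Of 26 Hox genes tested, which Polycomb silences in ES cells, 9 rose and none fell (median 0.5), at low levels. Hoxc6 rose, at 11.6, 11.5 and 7.48 against 1.33, 2.79 and 1.52, and fibroblasts express Hox genes as well.

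The RNA over microRNA hairpin genes was also listed. These are poly-A RNA-seq values of short genes, not mature microRNA. Of 109 hairpin genes tested, 19 rose and 4 fell (median 0.353), beside 20.4% and 17.8% of all genes tested. The share of hairpin genes that rose was thus not above that of all genes, and the share that fell was lower. The Mir302 cluster on chromosome 3, characteristic of pluripotent cells, was higher throughout. Its 5 hairpins lie between 127545228 and 127545807 (mm10), and whether their RNA belongs to 1 transcript was not tested. Mir302d was at 12.6, 8.92 and 9.05 in Lin28a-null and 2.05, 2.9 and 1.84 in WT cells, and Mir367, at the end of the cluster, at 15, 12.6 and 12.2 against 1.92, 2.35 and 4.12. Mir302a, Mir302b and Mir302c rose as well, and Mir302c did not pass when any library but WT-2 was left out (adjusted p between 0.054 and 0.074). Mir363 on chromosome X, in the cluster related to Mir17, was at 4.46, 8.91 and 2.49 against 26.7, 11.8 and 21.1, and it did not pass without Lin28a-null replicate 1, WT-1 or WT-3 (adjusted p between 0.051 and 0.053). Mir19b-2 of the same cluster fell, at 0.238, 0.641 and 0 against 5.96, 3.79 and 2.29. In the sequences below miR-302b and miR-302d share a seed, that of miR-302c is shifted by a base, and Mir367 and Mir363, which moved in opposite directions, share another. Capitals mark the seed (RefSeq, GRCm38.p6).
miR-302b-3p: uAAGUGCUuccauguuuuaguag
miR-302d-3p: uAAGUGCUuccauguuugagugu
miR-302c-3p: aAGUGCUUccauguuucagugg
miR-367-3p: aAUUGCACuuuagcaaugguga
miR-363-3p: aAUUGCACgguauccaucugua

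Of 35 cyclins and cell cycle inhibitors, 11 rose and 6 fell (median 0.106). Ccnd2, a cyclin of G1 phase, was at 104, 79.8 and 67.5 in Lin28a-null and 9.58, 20.5 and 12.7 in WT cells, and Ccnd1 at 141, 128 and 112 against 49.7, 73.8 and 54.7. Inhibitors were split. Cdkn2b (p15) was at 36.3, 32.6 and 31.8 against 7.43, 14.2 and 7.67 and the antiproliferative gene Btg2 at 310.0, 264 and 224 against 55.9, 126 and 59, while Cdkn1b (p27) fell, at 20.4, 21.1 and 19.6 against 29.8, 43.6 and 37.3. Of 22 telomere genes, 10 rose and 5 fell (median 0.103). The risers included Zscan4 genes, which are also on the 2-cell list, and Stn1, a telomere capping protein, fell, at 15.3, 16.4 and 16.1 against 29.5, 34 and 27.8. Terf1 and Pot1a, which coat telomeres, did not pass, Terf1 at 229 to 255 and 249 to 261.

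Actin and contractility genes were higher, with 25 of 40 rising and 3 falling (median 0.6). S100a4 and S100a6, calcium-binding proteins of migrating cells, were at 45, 41.8 and 32.4 and 207, 186 and 106 against 4.62, 11.1 and 3.57 and 32.6, 59.5 and 19.1, and smooth muscle actin (Acta2) at 99.8, 76.7 and 62.3 against 17.7, 29.9 and 19.1. Beta-actin (Actb) was at 1342 to 1756 and 1595 to 2023 and did not pass, and the tropomyosin gene Tpm3 fell, at 317, 299 and 299 against 597, 601 and 614. Fibroblasts express S100a4, S100a6 and Acta2 as well, the summed fibroblast level given above rose beside this list, and its part was not tested. Of 19 protocadherins, 12 rose and none fell (median 0.908), with Pcdh7 at 5.22 to 8.41 against 0.684 to 1.75.

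**Figure D5:**
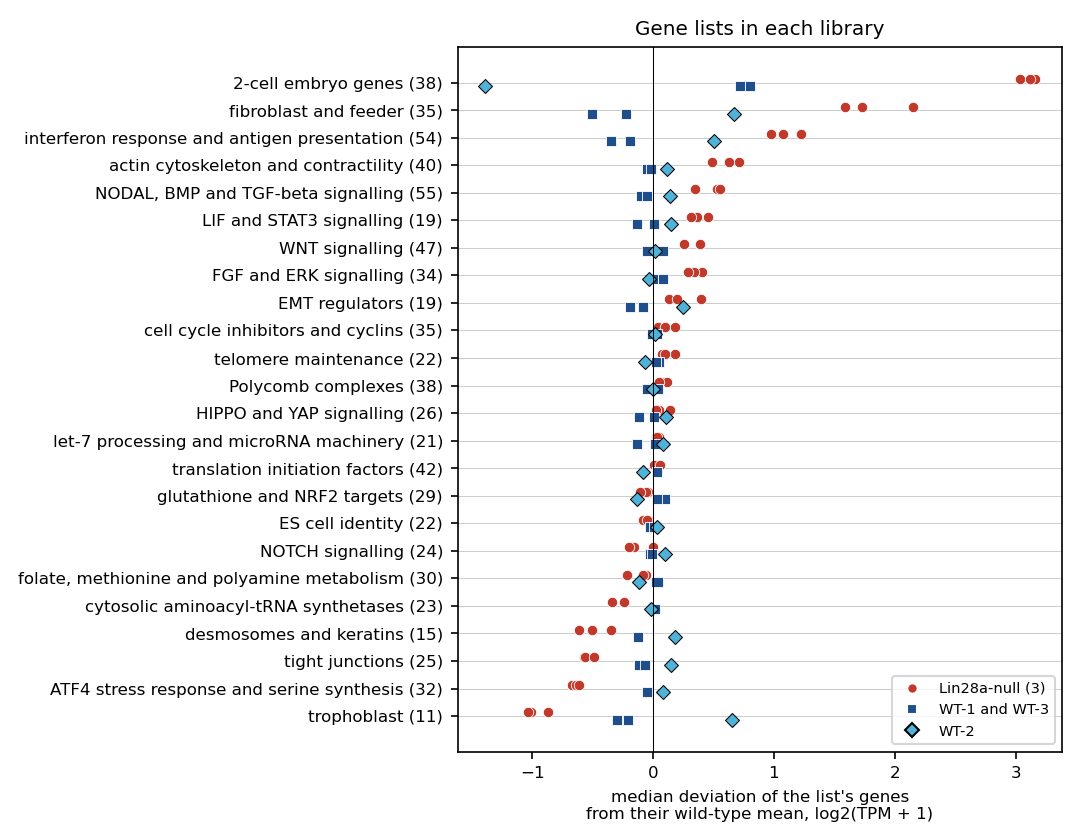
Each row is a gene list with the number of its genes tested, and each point is 1 library, placed at the median deviation of the list's genes from their WT mean, log2(TPM + 1). WT-2 lies below the other WT libraries for 2-cell embryo genes and above them for trophoblast, fibroblast and interferon genes.

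Genes of the 2-cell embryo, when the embryonic genome is first switched on, had the largest median change of the 24 lists plotted. Of 38 tested, 35 rose and none fell, with a median of 3.103 that was 2.311 without WT-2. Zscan4c was at 126, 139 and 125 in Lin28a-null cells and 9.03, 0.344 and 11.5 in WT cells, with WT-2 far below its group. Zfp352 was at 4.64, 7.35 and 3.61 against 0.707, 0 and 0.624. The summed level was 2321 to 2484 TPM in Lin28a-null, 449 to 680 in WT and 362 to 429 in libraries labelled Lin28b-null. Zscan4, Tcstv and Usp17l genes have near-identical copies, and each of their values is uncertain for that reason.

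Interferon-induced genes were higher as well, with 36 of 54 rising and 1 falling (median 1.085, and 1.334 without WT-2). Ifit1, an RNA-binding effector of the interferon response, was at 88.2, 62.7 and 73.4 against 3.25, 20.8 and 5.7, and Gbp2, a guanylate-binding protein, at 24.4, 21.6 and 23.8 against 2.27, 5.45 and 2.73. WT-2 was the highest WT library for both. Irf7, a factor that amplifies the response, was at 60 to 71.4 against 16.3 to 42.3, and rose. Ifitm1, which is also a germ cell gene, fell, at 54.7, 62.5 and 60.7 against 240.3, 262 and 216. B2m, the light chain of MHC class I, was at 1288, 1042 and 977 against 214, 371 and 253, and the class I genes H2-D1 and H2-K1 rose with it, H2-D1 to 316 to 414 from 43.4 to 76.1. Of 17 MHC class I genes, 9 rose and 4 fell, and all 7 guanylate-binding protein genes tested rose. The summed level of the interferon list was 6235 to 7207 TPM in Lin28a-null and 3229 to 5202 in WT libraries, and the fibroblast list moved in the same direction. Its part in the rise was not tested.

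The interferon-stimulated response element, in which the letters GAAA occur at both ends of 2 bases of any kind, searched on both strands of the same window, was found in 17 of 41 list members with a promoter (41.5%), against 3.6% of tested genes and 4.0% of all promoters. It was in 13 of 26 members that rose and in 4 of 15 others. The list was chosen for its link to interferon, so its share above that of all genes is not a result of these data. A match here does not show binding either. The promoter of Ifit1 (chr19:34640639-34640938, plus strand, GRCm38.p6) is shown because it carries it in 2 places, in capitals and on the opposite strand.
Ifit1: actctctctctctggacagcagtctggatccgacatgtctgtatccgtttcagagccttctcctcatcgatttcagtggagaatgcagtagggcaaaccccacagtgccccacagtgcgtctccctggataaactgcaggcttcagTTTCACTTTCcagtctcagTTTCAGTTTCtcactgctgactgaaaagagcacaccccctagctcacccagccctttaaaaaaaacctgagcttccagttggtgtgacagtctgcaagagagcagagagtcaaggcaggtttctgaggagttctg

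Called genes also lay side by side. Among genes tested, 34 runs of at least 4 neighbours called in the same direction held 197 genes, with 30 runs upward and 4 downward. The longest, with 30 genes on chromosome 12 between 87480108 and 88324026 (mm10), was made almost wholly of predicted genes. Others held the Zscan4 genes on chromosome 7, the Ifi200 genes on chromosome 1 with Ifi204 at 49.9, 30.4 and 32.1 against 1.77, 5.2 and 3.89, the Gbp genes on chromosomes 3 and 5, the Ifit genes on chromosome 19 and the chemokine genes on chromosome 11, where Ccl2 was at 339, 293 and 228 against 29.9, 51.9 and 40.3. Downward runs were the Gstm genes, a run with Gss and Myh7b on chromosome 2, and 2 more on chromosomes 13 and 17.

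Of 208 solute carrier genes, 31 rose and 61 fell (median -0.142). Slc10a6, a transporter of sulfated steroids, was at 11.1, 13.3 and 11.9 against 1.45, 0.574 and 1.9, and Slc11a1, a metal transporter known from macrophages, fell, at 1.46, 3.38 and 1.61 against 9.95, 13.2 and 8.78. Of 26 potassium channel genes, 4 rose and 9 fell (median -0.124), with Kcne4 at 6.25 to 10.5 against 0.59 to 1.03 and Kcnip3 at 0.777 to 1.49 against 4.92 to 5.56. The 21 other lists with at least 10 genes tested had medians between -0.118 and 0.567, and between -0.116 and 0.932 without WT-2. Cholesterol synthesis, DNA repair, the proteasome, splicing factors and DNA methylation lay between -0.069 and 0.173. The highest was primitive endoderm, with 5 of 12 genes rising and 2 falling (median 0.567, and 0.932 without WT-2). Its summed level was 1530 to 1902 TPM in Lin28a-null and 671.3 to 1173 in WT libraries. In libraries labelled Lin28b-null it was 1308 to 1584 TPM, also above every WT library. The part of the fibroblast transcripts in it was not tested. Retinoic acid signalling had 8 of 19 genes rising and 1 falling (median 0.397).

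The balance of directions differed by level. Among 4050 genes between 1 and 5 TPM, 21.8% rose and 10.9% fell (median 0.102), and among 2269 genes above 100 TPM, 20.4% rose and 22.1% fell (median -0.003). TPM keeps no read depth, so how many reads lie behind the low values is unknown. Long non-coding genes were 897 of those tested, with 21.2% rising and 10.1% falling, against 20.6% and 19.3% of 13239 protein-coding genes. These classes were not matched for level, and the long non-coding shares were close to those of genes between 1 and 5 TPM.

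The libraries labelled Lin28b-null gave a direct contrast with Lin28a-null cells, which share no library. Of 16060 genes, 4052 were higher (25.2%) and 3046 lower (19.0%) in Lin28a-null cells, and 2436 were called (15.2%), with 1819 higher (11.3%) and 617 lower (3.84%). The WT libraries also entered this fit, and without them 2438 genes were called. Because the genes described were selected in the Lin28a-null libraries, counts of them in this contrast are a description. Of the 15 largest rises 14 were higher in Lin28a-null libraries than in those labelled Lin28b-null, Egr1 being the exception, and of the 15 largest falls 9 were lower and 2 higher. In the libraries labelled Lin28b-null, Baiap2l1 was at 3.19 to 3.45 and Otx2 at 1.56 to 8.21. Phgdh, at 214 to 255, stood between Lin28a-null and WT cells, and Stc2, at 7.22 to 11.8, near the Lin28a-null level. Stat3, at 180.5 to 223, and Jam2, at 273 to 279, were well above WT in these libraries as well. Bmp7 was at 7.62 to 11.5 and Epcam at 91.4 to 141, the latter overlapping with WT.

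In iPS cells, a separate table with its own WT libraries, 1540 of 17557 genes rose (8.77%) and 1318 fell (7.51%) in double knockout cells, and 1169 were called (6.66%), with 765 higher (4.36%) and 404 lower (2.30%). Of the 1422 genes called higher in Lin28a-null ES cells with and without WT-2, 1232 were tested there, 556 rose (45.1%) and 17 fell (1.38%). Of the 552 called lower, 505 were tested, 194 fell (38.4%) and 17 rose (3.37%). Baiap2l1 had a mean of 4.43 in double knockout and 69.5 in WT iPS cells, and Tie1 of 14.3 and 0.243. Olig2 was listed at 0 in all iPS libraries, and Spry1 did not pass there, at 14 and 14.8. Chac1 did not pass either, at 93 and 86.2, while Stc2 and Phgdh fell, Phgdh to 99.4 from 196. Tight junction genes had a median of -0.035 and ATF4 genes of -0.241 in iPS cells. Of 2-cell embryo genes, 33 of 37 tested there rose and 1 fell (median 3.117). Interferon genes had a median of 1.269, with 36 of 54 rising and 1 falling. Among trophoblast genes 6 of 10 fell and 1 rose (median -0.839), and 8 of 35 fibroblast genes rose and 0 fell (median 0.537). The fibroblast list was at 7166 to 10190 TPM in double knockout and 4652 to 7443 in WT iPS libraries, which overlapped.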

How the data were processed

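RNA-seq was measured in 23 samples, of which the 3 Lin28a-null and 3 WT ES libraries are compared here. The authors selected poly-A RNA on poly-T beads, trimmed reads with Trimmomatic 0.36, aligned them to mm10 with HISAT2, removed duplicates with Picard, kept uniquely mapped reads and computed gene values with StringTie 1.3.4d on GENCODE M18 (CASAVA 1.8 is also listed per the labels). The deposited values are TPM, scaled for transcript length and to nearly the same total in each library, so that read depth cannot be recovered and no interval for counting error is printed. Duplicate removal and the loss of reads from near-identical copies affect very abundant and repeated genes. Whether counting used strand is not given in the sources used here, so overlapping and antisense genes are uncertain.

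Genes averaging 1 TPM or more in the 6 libraries were put on the log2(TPM + 1) scale, a pseudocount of 1, and compared by the moderated two-sided test of limma (version 3.58.1, R 4.3.3), fitted with a trend of variance on level and with Benjamini-Hochberg adjustment over every gene tested. A fold change on this scale understates the change of low genes. All adjusted p-values in the text come from this test. A call needs both an adjusted p below 0.05 and a change of more than 1 in log2. The same test was run without WT-2, against the libraries labelled Lin28b-null with the WT libraries in the fit, and in iPS cells within their own table. The script was checked on simulated data. Tables and figures were made with Python 3.11.15, pandas 2.3.3, numpy 2.4.6 and matplotlib 3.10.9. Chromosomes and biotypes came from GENCODE M21, and sequences from RefSeq tables of GRCm38.p6.

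The genes named are Lin28a and Lin28b, the 15 largest rises and 15 largest falls among genes called with and without WT-2 whose libraries do not overlap and whose higher group averages at least 5 TPM (predicted, pseudogene, mitochondrial, histone, snoRNA, Zscan4, Tcstv and ribosomal protein genes left out), and from each list up to 4 members with the largest changes, the strongest of the opposite direction and up to 3 central members. Genes on chromosome Y, Xist, microRNA hairpins, the genes in runs of neighbours, Fosb, Jun, Junb, Gstm genes, Eno1 and Asns were picked once their values were known. The members and the 49 gene lists were chosen with earlier results of these data known. The embryo table and the ilet7 libraries were not used in a comparison, except that the ilet7 libraries entered the fit to all 15 ES libraries.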

Additional observations from a re-analysis of the deposited data

How the results depend on the processing

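Under the 16 alternatives run, no named gene that passed the test turned direction. A mean of at least 5 TPM called 1327 of 12010 genes, 869 higher and 458 lower, with medians of 0.513 for WNT, 0.666 for TGF-beta, -0.876 for desmosome and 0.631 for EMT genes, which follows from testing fewer genes. A pseudocount of 0.1 called 2557 genes and gave medians of 0.415 for FGF, 0.63 for TGF-beta and 4.059 for 2-cell genes. Quantile normalization moved NOTCH to -0.212 and glutathione genes to -0.143, and median-of-ratios scaling moved ES identity to -0.095. Sample quality weights, which gave WT-2 a weight of 0.272, moved ES identity to -0.025, FGF to 0.262, desmosomes to -0.329 and tRNA synthetases to -0.328. The cause of these shifts was not tested.

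Leaving out 1 library at a time gave 1880 to 2303 calls, with 1220 to 1690 higher and 613 to 725 lower. The medians ranged from -0.071 to -0.008 for ES identity, from 0.279 to 0.406 for LIF, from 0.209 to 0.457 for FGF, from 0.317 to 0.455 for WNT, from 0.385 to 0.527 for TGF-beta, from -0.615 to -0.334 for desmosomes, from -0.018 to 0.054 for initiation factors, from -0.308 to -0.246 for tRNA synthetases, from -0.178 to 0.023 for glutathione genes, and from -0.008 to 0.085 for microRNA machinery, so the sign of the initiation factor, glutathione and microRNA machinery medians rested on single libraries. The median of chromosome 1 was 0.155 to 0.208 over the alternatives, a range added after seeing the data.

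Same-numbered libraries did not deviate together (r = -0.122, -0.039 and -0.025), so the replicate numbers were not read as pairs. A fit with the replicate block called 2154 genes, 1462 higher and 692 lower. With 3 libraries a group and no read depth, small changes of low genes were not resolved.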
